A study of Mus musculus with 18 samples.

Results

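The levels of cytoplasmic mRNAs were compared between mouse RAW264.7 cells, an established line with macrophage character, kept for an hour or longer with 4-thiouridine (4sU) and cells kept with it for a shorter time. 4sU is a uridine analogue that enters RNA made while it is present. The libraries were chosen by label, as the input libraries of experiment 1, which are 6 of the 18 in the series. The short group held the libraries of 0, 20 and 40 min, of which the first had received no 4sU, and the long group held those of 60, 90 and 120 min. All cells were unmodified RAW264.7 in 1 growth medium, the dose was 200 µM (the micro sign is missing in the labels) and every lysate contained cycloheximide. Each time had 1 library, and no label says that the dishes came from separate cultures. The p-values therefore measure only the spread between these 6 samples, and a time cannot be told apart from its lysate. The libraries of a group are of different times, so the spread within a group includes any change with time. Input of experiment 2 at 30 and 40 min and footprints from the 6 lysates of experiment 1 were used for comparison.

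In cells that take up 4sU, an mRNA that is replaced quickly carries label in much of its pool soon after labelling starts, and a stable mRNA carries little. mRNAs of early response genes, cytokines and many zinc finger regulators are known for short lives, those of ribosomal proteins and metabolic enzymes for long ones. The pool of a short-lived mRNA also follows changes of its own synthesis or decay sooner. 4sU at high doses is known to disturb ribosomal RNA synthesis, so its duration is of interest beyond labelling. After chemical conversion, a labelled position is read as C in place of T, so reads without such a change come from older RNA together with those new fragments in which no 4sU was placed or converted.

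The 6 input libraries held 6230562 to 7933796 reads, and 9614 genes had enough to be tested. The share of reads with at least 1 conversion was 0.289% without 4sU, 2.16% at 40 min, 3.91% at 60 min and 8.07% at 120 min. The first principal component, with 46.1% of the variance, placed the 0, 20 and 40 min libraries at -13.9, -16.0 and -16.6, the 60 min library between at 0.264, and those of 90 and 120 min at 22.8 and 23.3. The 10 macrophage markers were all found, with summed levels of 6211 to 7195 CPM in the short group and 6829 to 7846 in the long group. Of 34 markers of other cell types 26 were at 0 in every library. The other 8 summed to 1.07 to 1.47 CPM in the short group and to 2.27 to 5.14 CPM in the long group. CPM here is a gene's count scaled to a common library size (TMM), so a change in the whole mRNA content of the cells is not seen. In such bulk RNA fewer cells of a type and less RNA per cell cannot be told apart.

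No mRNA passed the test of the long against the short group, although many lay apart. edgeR's quasi-likelihood test called 0 genes higher (0%) and 0 lower (0%) at a Benjamini-Hochberg adjusted p under 0.05, where the smallest adjusted p was 0.104. At an unadjusted p under 0.05 it held 865 higher and 1091 lower, and DESeq2's Wald test called 97 higher and 256 lower. In 1213 genes (12.6%) all 3 long libraries lay above all 3 short ones and in 1310 genes (13.6%) all lay below. Without the 60 min library edgeR called 78 higher and 442 lower, and without any other single library it called 0 in either direction. The 60 min library is the one that the principal component of these same libraries placed between the groups. Leaving it out sets the groups further apart, so these calls are a description.

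With the hours of 4sU treated as a number, mRNAs passed in both directions. With each hour 503 mRNAs fell (5.23% of the 9614 tested) and 51 rose (0.530%), by the same test and threshold. This fit was planned as an alternative to the comparison of groups, and its results are given because the group comparison called none. Among those that fell the median change was -0.55 per hour on the log2 scale, against 0.03 over all genes tested, and among those that rose it was 0.26. All 503 had a negative slope when any 1 library was left out. They were chosen by their slope in these same libraries, so the kept sign is a description and no test. The calls themselves rested on single libraries. There were 0 in either direction without the 20 min library (smallest adjusted p 0.0881) or without the 120 min library (0.0762), and 203 of the 503 stayed called without the 60 min library, 251 without 0 min, 378 without 90 min and 503 without 40 min. At the threshold, Zc3h4 was the last gene inside with a slope of -0.43 and an adjusted p of 0.0495, and B3galt6 the first outside with -0.60 and 0.0501.

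Rlf, which encodes a zinc finger protein, was among the genes with the smallest p in the comparison of groups. Its level was 89.5, 89.7 and 78.5 CPM at 0, 20 and 40 min and 50.9, 35.8 and 33.3 CPM at 60, 90 and 120 min. No long library reached a short one (85.9 ± 6.40 against 40.0 ± 9.53 CPM, SD, n = 3 libraries of different times each). The difference was -1.10 ± 0.16 (log2, SE; edgeR adjusted p = 0.104), and the slope of -0.85 ± 0.11 per hour passed (adjusted p = 0.017). The gene lies on the minus strand at chr4:121145373-121215084 (GRCm38). Il10ra, the ligand-binding chain of the interleukin-10 receptor, was at 45.6, 44.7 and 28.4 CPM in the short group and at 20.5, 13.2 and 14.1 CPM in the long group. Its slope of -1.02 per hour passed (edgeR adjusted p = 0.017), and the 40 min library already lay below those of 0 and 20 min. The gene lies on the minus strand at chr9:45253837-45269149.

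Clk1, a kinase that phosphorylates splicing factors, was at 67.6, 54.9 and 55.0 CPM in the short group and at 34.2, 25.6 and 30.6 CPM in the long group. Kif18a, a kinesin that aligns chromosomes in mitosis, was at 62.0, 68.9 and 75.8 CPM and then at 43.6, 27.6 and 23.6 CPM. Gpr183, an oxysterol receptor that guides migrating immune cells, was at 117, 126 and 125 CPM and then at 82.5, 55.7 and 66.7 CPM. In all 3 mRNAs every long library lay below every short one, with a step between 40 and 60 min. Their slopes were -0.68, -0.87 and -0.58 per hour, with edgeR adjusted p of 0.021, 0.023 and 0.033. Kif18a overlaps Mettl15 in the annotation and Gpr183 overlaps Ubac2, and the sources used here do not say how reads of overlapping genes were assigned, so these values are uncertain. Uspl1, which overlaps Hmgb1, has the same limit. Zfp62, a zinc finger gene, and Uspl1, a protease for SUMO, fell with slopes of -0.59 and -0.56. B3galt6, an enzyme that builds the linker of proteoglycan chains, stood at 18.4, 20.9 and 20.4 CPM and then at 11.2, 10.5 and 9.93 CPM, and its slope did not pass. Together with the 4 genes above and Rlf, these 3 are the 8 with the smallest p for a lower level, and none passed in the comparison of groups.

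Of the 8 genes with the smallest p for a higher level, only Tardbp also passed the test by hours. Tardbp, which encodes the RNA-binding protein TDP-43, was at 183, 166 and 175 CPM in the short group and at 229, 271 and 279 CPM in the long group. Its difference was 0.57 ± 0.10 (log2, SE; edgeR adjusted p = 0.104) and its slope 0.40 per hour (adjusted p = 0.025). It lies on the minus strand at chr4:148612382-148627019 and overlaps Masp2. Cd63, a tetraspanin of late endosomes and lysosomes, was at 65.3, 54.7 and 51.0 CPM and then at 80.8, 109.6 and 95.1 CPM, so the short libraries declined before the long ones stood above them, and its slope of 0.46 did not pass (edgeR adjusted p = 0.069). Arhgdia, a regulator of small GTPases, was at 427, 417 and 382 CPM and then at 514, 688 and 596 CPM. Dynll2, a dynein light chain, Snrpd3, a core protein of spliceosomal particles (it overlaps Gucd1), Pitpna, a phosphatidylinositol carrier, Vac14, a scaffold of the kinase PIKfyve, and Myo1d, a myosin, had the same shape, with the highest level at 90 min.

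**Figure D1:**
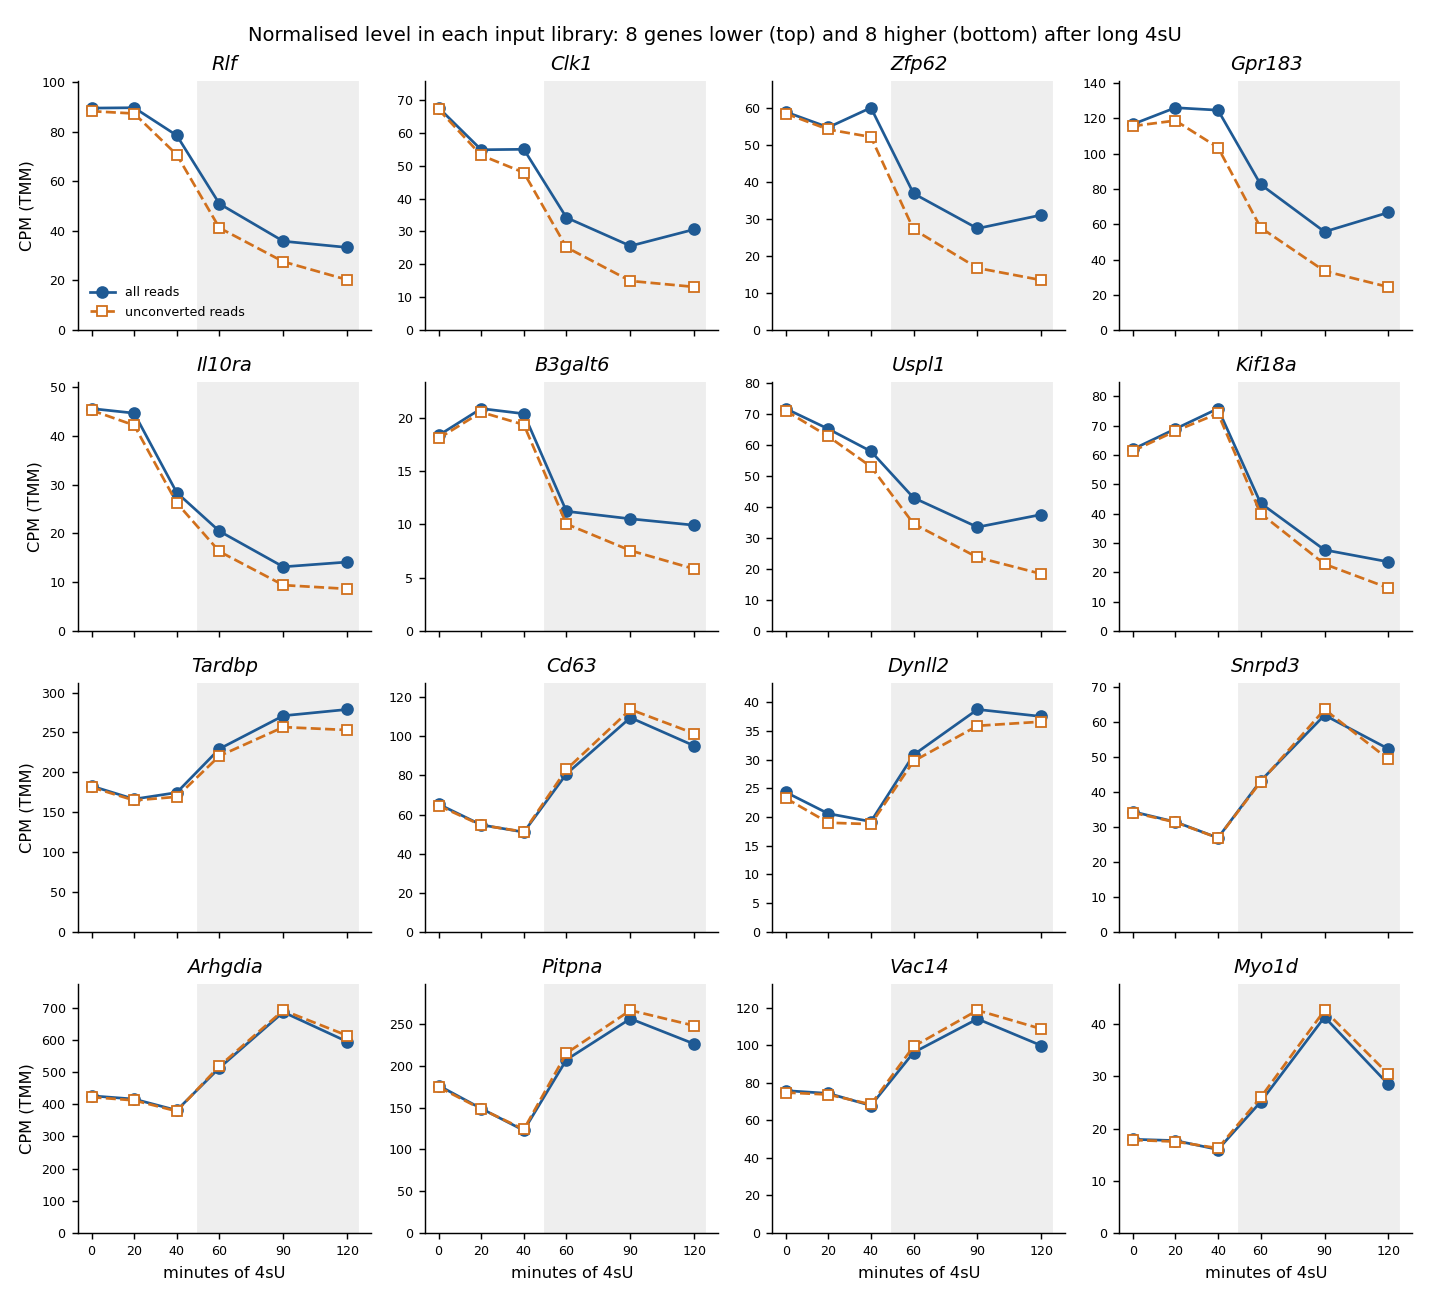
Level in CPM after TMM scaling (vertical, linear from 0) against minutes of 4sU (horizontal) in each of the 6 input libraries, for the 8 genes lower and the 8 genes higher with the smallest p. Filled points are all reads and open squares unconverted reads, each scaled by its own class, and the long group is shaded; Rlf went from 89.5 to 33.3 CPM in all reads and from 88.3 to 20.3 in unconverted reads, while Cd63 lay close together in both.

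A nonamer of AU-rich elements, TTATTTATT, binds proteins that hasten the decay of mRNAs. It was searched on the transcribed strand alone, in the annotated 3' UTR of 1 coding transcript per gene. Among the genes that fell it was in 69 of 483 with a 3' UTR (14.3%), among those that rose in 3 of 50 (6%), and among all tested genes in 655 of 9215 (7.11%). The 3' UTRs also differed in length, with a median of 1262 nt, 426 nt and 936 nt. Per kb of 3' UTR the 3 sets, in the same order, held 0.115, 0.0599 and 0.0647 sites. The part of length in the share was not tested. Sites are shown for 4 genes that fell (Il10ra, Tagap, Mdm2 and Orc1) and for 2 called lower in unconverted reads only (Fos and Tnf). In all reads Fos and Tnf also had negative slopes (-0.81 and -0.37 per hour), which did not pass. The first site of each of the 6 genes is given in 29 bases of GRCm38 with the site or merged sites in capitals. These stretches are at chr9:45254123-45254151 (minus) for Il10ra, chr17:7934788-7934816 (plus) for Tagap, chr10:117688915-117688943 (minus) for Mdm2, chr4:108614579-108614607 (plus) for Orc1, chr12:85477103-85477131 (plus) for Fos and chr17:35199689-35199717 (minus) for Tnf.
Il10ra: ctgggaacctTTATTTATTTATTtgctca
Tagap: tcagtagagtTTATTTATTagtcacaata
Mdm2: ggcattgatgTTATTTATTtgcaaataaa
Orc1: ttattttccaTTATTTATTttgctttttc
Fos: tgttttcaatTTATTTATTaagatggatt
Tnf: tttgcacttaTTATTTATTATTTATTTAT
Il10ra held 3 sites and Tnf 5, with overlapping ones counted. Genes that were not called by hours also held sites, such as Elavl1 with 8 (slope 0.25), Rps16 with 3 (0.58) and Ctps2 with 2 (0.22). A match is a description of the letters, and most of the genes that fell held none.

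Counted in unconverted reads alone, more mRNAs passed, and in the comparison of groups nearly all of those were lower. Between the groups 66 genes fell (0.689% of 9583 tested) and 1 rose (0.0104%), which was Cd63 (0.81 ± 0.15, edgeR adjusted p = 0.049). By hours 1553 fell (16.2%) and 835 rose (8.71%). These values are shares of the unconverted reads of each library, which are themselves a part of the reads used above, so they are no independent test of them. A read leaves the class once it carries a conversion, so replacement of old by new RNA lowers a gene here even at a constant total level. With the scaling factors of all reads in place of their own, 0 genes passed in the comparison of groups in either direction, and by hours 99 rose and 1831 fell. That scaling moved the median slope of all genes from 0.04 to -0.04.

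Fos, the immediate-early subunit of AP-1, was at 25.0, 31.2 and 19.8 unconverted CPM in the short group and at 10.2, 4.78 and 9.20 in the long group (-1.65 ± 0.28 log2, edgeR adjusted p = 0.042). In all reads it was at 25.2, 37.4 and 32.5 CPM and then at 18.5, 8.92 and 14.1 CPM, and its slope there did not pass (edgeR adjusted p = 0.071). Fbxo5, an inhibitor of the anaphase-promoting complex, was at 119, 120.1 and 91.1 unconverted CPM and then at 50.5, 25.7 and 28.5. In all reads of Fbxo5 the 120 min library, at 84.2 CPM, stood above the 90 min library at 59.8, while the unconverted level stayed low. Zfp472 and Cmtr2, a cap methyltransferase, had the lowest unconverted differences among genes with at least 100 reads, of -1.77 and -1.73.

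Some mRNAs were lower in unconverted reads with less difference in all reads. Txnip, an arrestin-domain inhibitor of glucose uptake, was at 186, 158 and 98.2 unconverted CPM in the short group and at 68.5, 43.5 and 47.3 in the long group, a difference of -1.47 ± 0.24 (edgeR adjusted p = 0.041). In all reads of Txnip, 188, 185 and 156 CPM stood against 144, 98.6 and 149 CPM, a difference of -0.44. Nfkbid, a nuclear regulator of NF-kB, was at 18.7, 18.7 and 15.8 CPM and then at 18.1, 17.3 and 13 CPM in all reads, so the groups overlapped. Its unconverted level went from 18.4, 17.1 and 12.0 CPM to 8.74, 8.48 and 5.07 CPM, and the difference of -1.07 did not pass (edgeR adjusted p = 0.061). Klf6, a zinc finger transcription factor, fell in all reads by hours (-0.60, edgeR adjusted p = 0.029), and its unconverted difference was -1.45.

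Early response regulators had the lowest median of the lists. Of 34 immediate-early and AP-1 regulators tested, 7 fell by hours in all reads (20.6%, against 5.23% of all genes) and 0 rose, and 22 fell in unconverted reads (64.7%, against 16.2%). Their median slope was -0.42 per hour in all reads and -0.86 in unconverted reads, against 0.03 and 0.04 over all genes. The 7 were Egr2, Dusp6, Klf4, Klf2, Plk3, Klf6 and Mcl1. Only 2 of the 7 had at least 100 reads on average, and Egr2 had 15.8. Dusp6, a phosphatase that switches off ERK, was at 16.2, 17.3 and 16.3 CPM in the short group and at 11, 3.66 and 3.37 CPM in the long group (slope -1.30, edgeR adjusted p = 0.020). Mcl1, a short-lived survival protein of the BCL2 family, was at 265, 270.5 and 261 CPM and then at 232, 163 and 161 CPM (slope -0.44, edgeR adjusted p = 0.020). Both were nearly level in the short group and lowest at 90 and 120 min.

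Of 230 numbered zinc finger genes, most of them presumed DNA-binding regulators, 31 fell (13.5%, against 5.23% of all genes) and 0 rose in all reads. Only 12 of the 31 had at least 100 reads on average. In unconverted reads 140 fell (60.9%, against 16.2% of all genes). The median slopes of the list were -0.33 per hour in all reads and -0.67 in unconverted reads. Copies of this family are similar in sequence, and how reads shared between them were counted is not given. Of 30 inflammatory and NF-kB genes 4 fell (Ccl4, Birc3, Tnip3 and Rnf19b, 13.3%) and 0 rose, with a median slope of -0.21. Of the 4, 3 had at least 100 reads on average. In unconverted reads 13 fell (43.3%, against 16.2% of all genes) and 1 rose (3.33%, against 8.71%). Tnip3, an inhibitor of NF-kB signalling, was at 107, 108 and 114 CPM and then at 90.4, 78.5 and 67.3 CPM. Of 25 interferon-response genes 2 fell (Irf9 and Irf8) and 0 rose, a share of 8% near the 5.23% of all genes. Of 22 p53 targets 3 fell (Polk, Mdm2 and Sesn1, 13.6%) and 0 rose. Mdm2, the ubiquitin ligase that degrades p53 and itself a p53 target, was at 54.1, 53 and 50.6 CPM and then at 43.8, 24.3 and 26.6 CPM (slope -0.63, edgeR adjusted p = 0.023).

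Of 34 mitosis genes 4 fell (Sgol1, Prc1, Aurka and Kif2c, 11.8% against 5.23% of all genes) and 0 rose, with a median slope of -0.10 over the list. Sgol1, the protector of centromeric cohesion, was at 43.9, 37.0 and 37.8 CPM in the short group and at 30.5, 22.7 and 18.7 CPM in the long group (slope -0.62, edgeR adjusted p = 0.017). Aurka, a spindle kinase, declined through both groups, from 183, 165 and 142 CPM to 139, 125 and 105 CPM (slope -0.37, edgeR adjusted p = 0.017). Of 37 S-phase and replication genes 4 fell (Orc1, Cdc6, Mcm10 and Chaf1a, 10.8%), while the median slope of the list was 0.07. Of 55 replication-dependent histone genes 4 fell by hours in all reads (7.27%, near the share of all genes) and 0 rose. In unconverted reads 37 of them fell (67.3%, against 16.2% of all genes), with median slopes of -0.26 and -0.36. Hist1h2bg was at 118, 125 and 92.8 CPM and then at 76.2, 73.6 and 67.7 CPM (slope -0.47, edgeR adjusted p = 0.021). Histone copies are nearly identical, so the level of a single one is uncertain.

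In other lists the counts are read against the 5.23% of all genes that fell. Of 35 nuclear splicing regulators 4 fell (Clk1, Rbm5, Ccnl2 and Clk3, 11.4%), with a list median of 0.01. Of 51 genes of ribosome biogenesis 3 fell (Tsr1, Wdr43 and Ppan), and this share of 5.88% is near that of all genes. Of 23 mRNAs with upstream open reading frames Ifrd1 and Mdm2 fell (8.70%) and Odc1 rose (4.35%, against 0.530% of all genes). Ifrd1, a transcriptional coregulator, was at 299, 308 and 348 CPM and then at 226, 164 and 125 CPM (slope -0.73, edgeR adjusted p = 0.020). In the lists of heat-shock proteins, mitochondrial ribosomal proteins, tRNA synthetases, deadenylases, pyrimidine metabolism, circadian genes and mitochondrially encoded mRNAs 0 genes passed by hours in all reads.

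Ribosomal protein mRNAs and lysosomal mRNAs had the most members that rose. Of 77 cytosolic ribosomal protein mRNAs 6 rose by hours (Rps29, Rpl37a, Rps26, Rps2, Rpl34 and Rps15, 7.79% against 0.530% of all genes) and 0 fell, with a median slope of 0.18 in all reads and 0.23 in unconverted reads. In unconverted reads 53 of the 77 rose (68.8%, against 8.71% of all genes). When these were scaled as all reads 9 rose, against 99 of 9583 genes. Rps26 was at 836, 832 and 863 CPM in the short group and at 947, 1056 and 1158 CPM in the long group (slope 0.26, edgeR adjusted p = 0.028). Rps29 was at 519, 573 and 566 CPM and then at 615, 793 and 837 CPM, but in reads with at most 3 T positions its slope turned to -0.10. Pseudogene copies of ribosomal protein genes make such counts uncertain.

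Of 42 macrophage and lysosome genes 4 rose (Lamp2, Cd36, Ctsb and Ctsl, 9.52% against 0.530% of all genes) and 0 fell, with a median slope of 0.17. Lamp2, a membrane protein of lysosomes, was at 108, 122 and 129.6 CPM and then at 134, 160.3 and 169.9 CPM (slope 0.33, edgeR adjusted p = 0.020). Ctsb, the lysosomal protease cathepsin B, was at 941, 991 and 981 CPM and then at 1085, 1286 and 1305 CPM (slope 0.27, edgeR adjusted p = 0.029). In unconverted reads 23 of the 42 rose (54.8%, against 8.71% of all genes). When these were scaled as all reads 9 rose, against 99 of 9583 genes. Of 86 nuclear genes of oxidative phosphorylation and 35 of the proteasome, 1 each rose in all reads (Atp5j and Psma6). These are 1.16% and 2.86%, against 0.530% of all genes. In unconverted reads 26 (30.2%) and 14 (40%) rose, against 8.71% of all genes. When these were scaled as all reads, 3 each rose and 1 of the former fell, against 99 and 1831 of 9583 genes. Of 26 other mRNAs with a terminal oligopyrimidine start, 0 passed in all reads. In unconverted reads 15 rose (57.7%, against 8.71% of all genes). When these were scaled as all reads, 2 rose and 1 fell, against 99 and 1831 of 9583 genes.

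**Figure D2:**
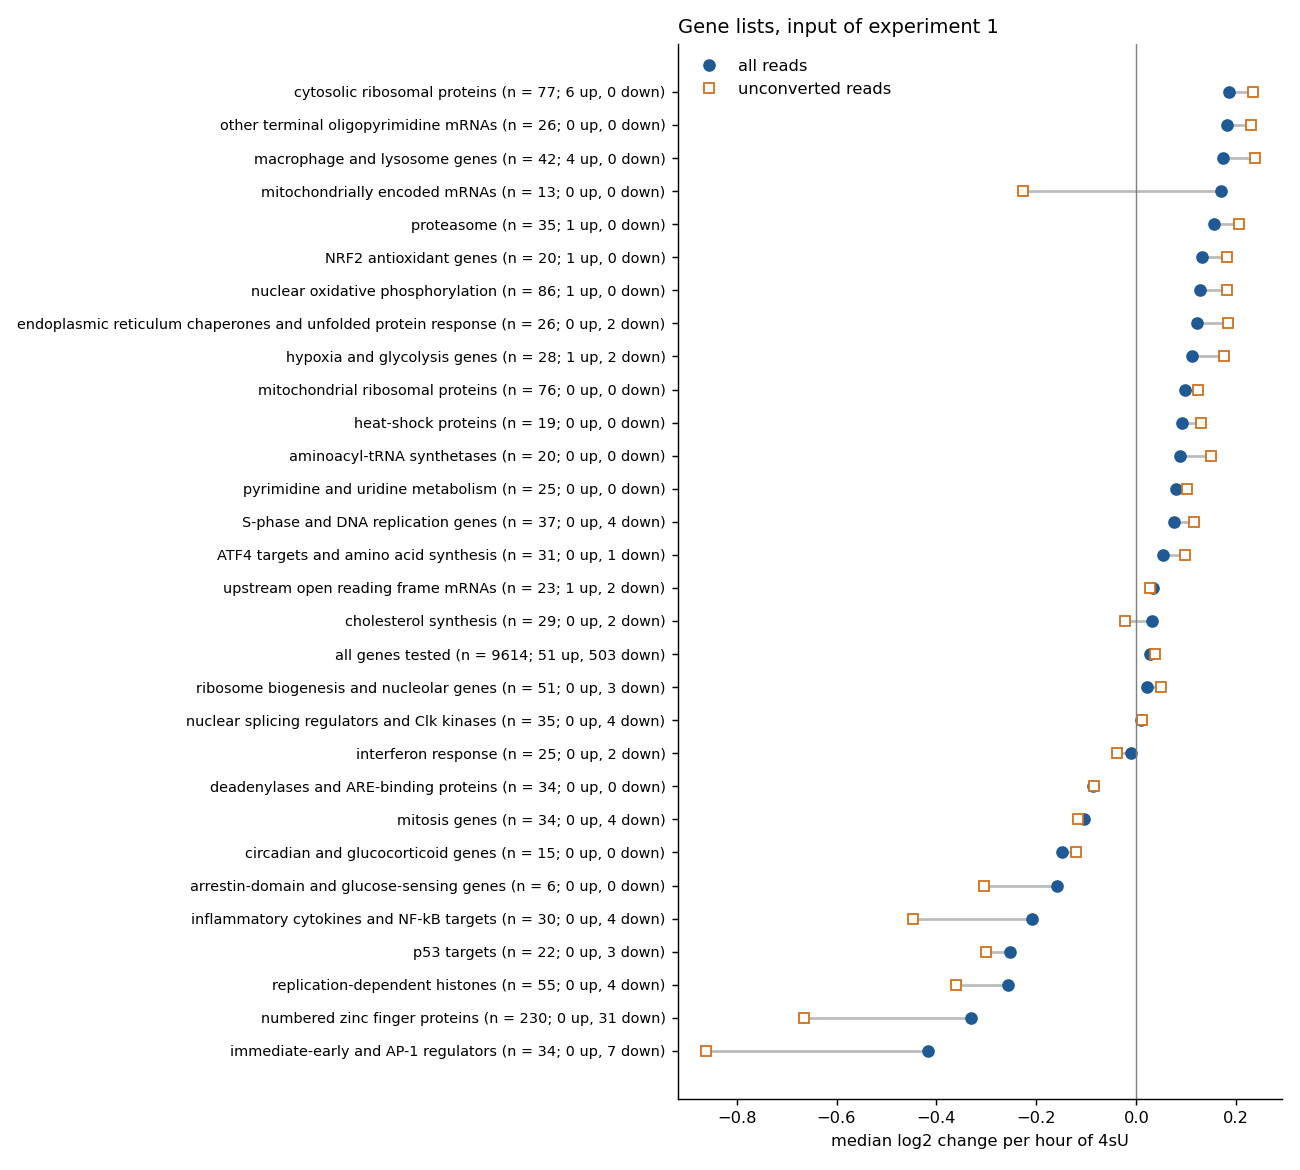
Median log2 change per hour of 4sU (horizontal) in each gene list with at least 6 tested members, for all reads (filled) and unconverted reads (open), with the members called in all reads at the left. Immediate-early regulators lie lowest, at -0.42 and -0.86, cytosolic ribosomal proteins highest in all reads at 0.18, and mitochondrially encoded mRNAs lie at 0.17 in all reads and -0.23 in unconverted reads.

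The mRNAs that fell had a higher converted share than most genes in the other experiment. At 30 and 40 min of experiment 2, whose libraries did not enter any of these fits, the converted share of the 503 had a median of 3.58% (quartiles 2.35% to 5.41%), against 1.40% over all genes (0.853% to 2.60%) and 0.998% in the 51 that rose. When 9605 genes were ordered by that share and cut into 10 equal bins, the median slope in experiment 1 went from 0.12 per hour in the lowest bin to -0.04, -0.10, -0.20 and -0.29 in the 4 highest. Genes that fell numbered 4 in each of the lowest 2 bins and 49, 98, 152 and 140 in the highest 4. Spearman's rho between share and slope was -0.502 across the 9605 genes, which are not independent replicates, and conversion also depends on the T content of the reads. The mean T positions per read of a gene had a median of 6.61 in the 503, 6.62 in all genes and 6.98 in the 51. Their rho with the slope was 0.0521. The mean level in the short group had a rho of -0.247 with the share and 0.180 with the slope, and its part was not tested. Not every quickly labelled group fell, since the 13 mitochondrially encoded mRNAs had a median share of 13.7% and a median slope of 0.17, with 0 called.

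**Figure D3:**
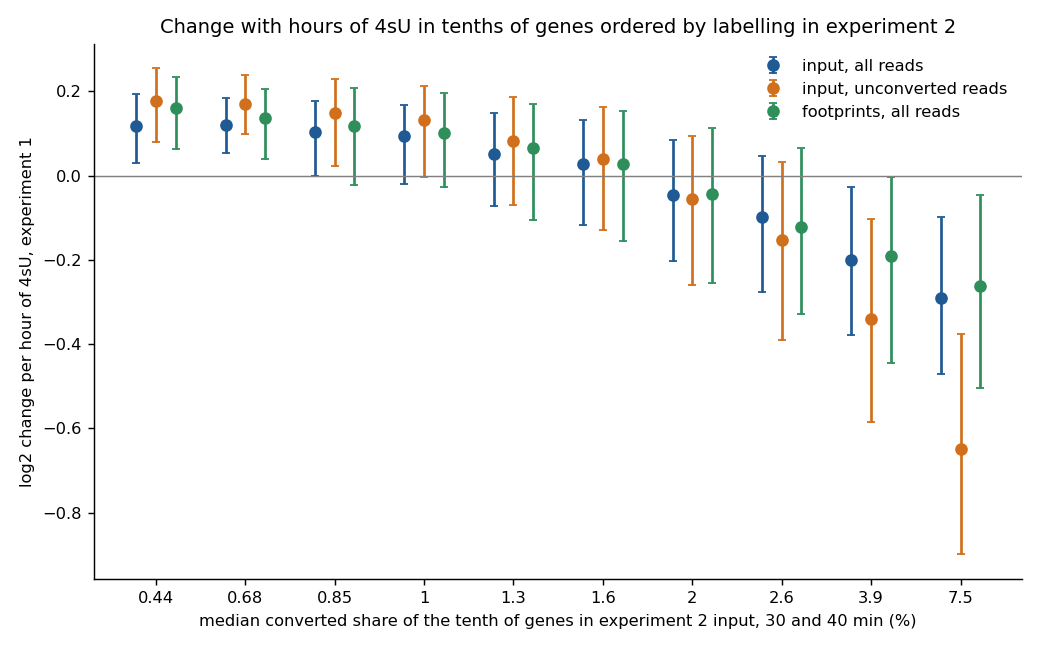
Median log2 change per hour of 4sU (vertical, bars from the lower to the upper quartile over genes) in 10 equal bins of the genes ordered by converted share in experiment 2 (horizontal, labelled with the median share in percent), for all input reads, unconverted input reads and footprints of experiment 1. In all reads the medians go from 0.12 to -0.29, and in unconverted reads from 0.18 to -0.65.

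Reads with many T positions can carry conversions, and a read without T cannot. The 503 mRNAs made up 3.18%, 3.12% and 2.77% of all reads at 0, 20 and 40 min and 2.49%, 1.84% and 1.51% at 60, 90 and 120 min. Among reads with 0 T positions they made up 3.47% at 0 min (972 of 28012 reads, 95% Wilson interval 3.26% to 3.69%) and 1.91% at 120 min (358 of 18735, 1.72% to 2.12%), intervals that cover counting error only. The log2 ratio of the mean share in the long to that in the short group was -0.63 in all reads, -0.50 in reads with 0 T, -0.54 with 1 to 3 T and -0.69 with 8 or more. The direction was the same in reads that cannot be converted, and the size was smaller. The genes were chosen on the sum of these classes, so these values are a description. By gene, the median slope of the 503 was -0.53 in reads with at most 7 T positions and -0.58 in those with 8 or more. With at most 3 T positions it was -0.45 over the 391 genes that could be fitted, of which 385 were below 0, and 4 genes in all passed as lower. The part of reads lost because of conversions in these differences was not tested.

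**Figure D4:**
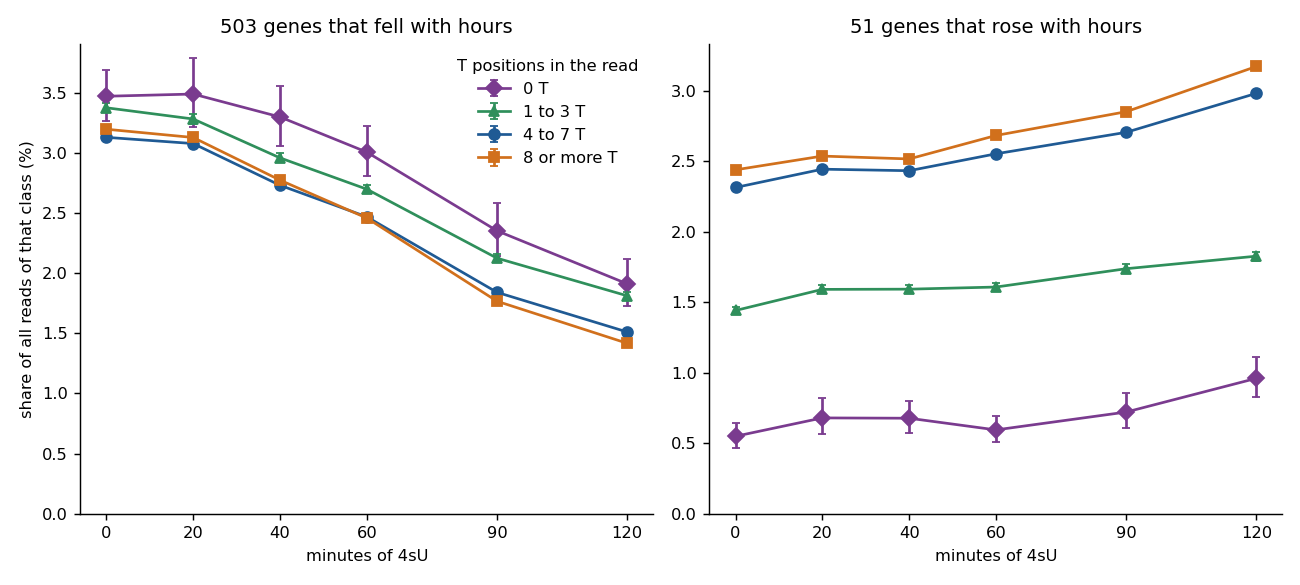
Share of all reads of a class, in percent from 0 (vertical), that came from the 503 genes that fell and the 51 that rose, against minutes of 4sU (horizontal), by the number of T positions in the read, with 95% Wilson intervals. The 503 genes go from 3.47% to 1.91% of the reads with 0 T and from 3.20% to 1.42% of those with 8 or more, and the 51 genes from 0.550% to 0.961% of the reads with 0 T.

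Footprints, the fragments covered by ribosomes, came from the same 6 lysates and had 11771175 to 23327760 reads each. Long against short 4sU, 796 of 9956 genes fell (8.0%) and 466 rose (4.68%), and by hours 1464 fell (14.7%) and 1075 rose (10.8%). Of the 503 mRNAs that fell in input, 395 also fell by hours in footprints, which is 78.5% of the former and 27.0% of the latter. The 2 materials share lysates, so this overlap is no repeat in other cells. Of the 51 that rose in input 31 rose in footprints and 1 fell. The 1 that fell was Rps2, a ribosomal protein mRNA (footprint slope -0.44 per hour, edgeR adjusted p = 0.006). The difference between its slopes, -0.69, did not pass (edgeR adjusted p = 0.061).

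Rlf footprints were at 30.0, 29.3 and 21.5 CPM in the short group and at 12.5, 7.95 and 4.90 CPM in the long group (-1.70 ± 0.27 log2, edgeR adjusted p = 0.016). Sgol1 footprints were at 38.1, 30.1 and 25.2 CPM and then at 12.9, 11.7 and 11.1 CPM (-1.39 ± 0.16, edgeR adjusted p = 0.011). Prc1 footprints, of a protein that bundles spindle microtubules, were at 255, 221 and 177 CPM and then at 123, 123 and 84.1 CPM (-0.98 ± 0.17, edgeR adjusted p = 0.018). In all 3 the long libraries lay below every short one, as in input for Rlf and Sgol1. The change from short to long was then compared between the materials, with a replicate block for the lysate, and edgeR called 0 genes in either direction (605 higher and 628 lower at an unadjusted p under 0.05, smallest adjusted p 0.226). It also called 0 without the block. DESeq2's Wald test called 5 higher and 34 lower. By hours 2 genes passed, with Tnf higher and Rpsa lower in footprints relative to input.

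**Figure D5:**
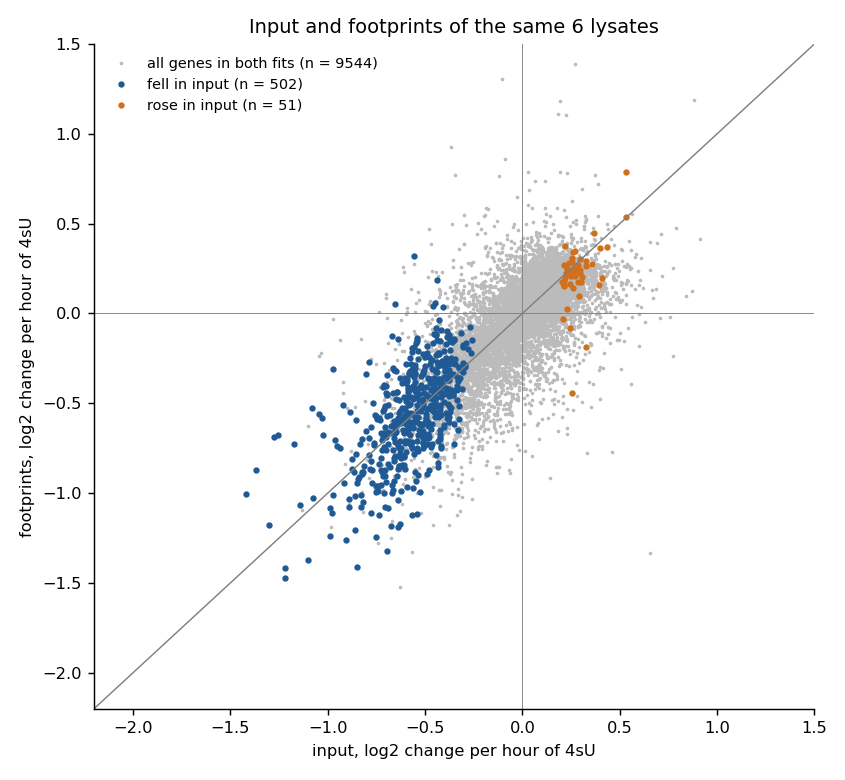
Log2 change per hour of 4sU in input (horizontal) and in footprints of the same lysates (vertical) for 9544 genes tested in both, with the line of equal change and 1 gene outside the axes. Most of the 503 genes that fell in input lie below 0 in footprints too, 395 of them called there, and 31 of the 51 that rose were called higher.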

How the data were processed

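Per the labels, cytoplasmic input RNA was fragmented by alkali, selected at 25 to 35 nt, depleted of ribosomal RNA and treated with NaIO4. The authors' deposited values are raw counts of reads per gene, in columns split by T positions (0 to 20) and T-to-C conversions (0 to 3), a meaning inferred from headings and values. The submitters' processing notes name Bowtie 0.12.8 and mm10. How reads were assigned to genes, with which annotation, mismatches and strand setting, is not given in the sources used. Spike-in counts and the footprints of experiment 2 were not used. Depth was 6230562 to 7933796 reads per library, which left a 95% Wilson interval for the 120 min converted share of 8.05% to 8.09%.

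All columns of a gene were summed, or those with 0 conversions. Tests were two-sided edgeR 4.0.16 quasi-likelihood fits (R 4.3.3) with TMM factors and edgeR's filter for low counts, with Benjamini-Hochberg adjusted p under 0.05 over all genes as the call. The scripts were tested on simulated data. Input and footprints were paired by lysate, from the protocol in the labels. Alternatives were hours of 4sU as a number, DESeq2 1.42.0 size factors and Wald test, upper-quartile factors, no filter, reads of few or many T positions, leaving out composition-heavy genes and leaving out single libraries. For the difference between footprints and input, both libraries of a lysate were left out together. Reads with at most 3 T positions, and hours for footprints and for their difference from input, were added after seeing the data. Gene models were GENCODE vM21 (GRCm38), which matched 13035 of 13738 listed genes, 178 of them by an older symbol.

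The members and the 31 gene lists were chosen with earlier results of these data known. The text names, with at least 100 reads on average, the 8 genes of smallest p in each direction of the total comparison (since fewer than 5 passed), the 8 lowest called and the 8 highest by smallest p in unconverted reads, the 8 whose unconverted change lay furthest below that of all reads, and up to 4 members per list; not all are printed. Members called by hours in the lists, Zc3h4, Rpsa, and genes shown or named for their sites were named after their values were seen. Some items are not reported here.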

Additional observations from a re-analysis of the deposited data

Results flagged for a closer look

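Tnf, which encodes a secreted inflammatory cytokine, changed differently in footprints and in input of the same lysates. In input its level was 55.8, 62.9 and 56.8 CPM at 0, 20 and 40 min and 44.6, 33.2 and 41.7 CPM at 60, 90 and 120 min, with a slope of -0.37 per hour that did not pass (edgeR adjusted p = 0.081). In footprints it was at 15.2, 21 and 33.6 CPM and then at 42.0, 48.0 and 57.0 CPM, and rose by 0.92 per hour (edgeR adjusted p = 0.002). The difference between the slopes was 1.32 ± 0.17 per hour (log2, SE; adjusted p = 0.033, edgeR with lysate as a block), a fit added after seeing the data, and the groups' difference of 1.72 did not pass (adjusted p = 0.226).

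Rpsa, a protein of the small ribosomal subunit, went the other way. Its input level was 3536, 3569 and 3848 CPM in the short group and 3566, 3899 and 4745 CPM in the long group, and the slope of 0.18 did not pass. Footprints of Rpsa were at 1348, 1331 and 957 CPM and then at 809, 662 and 597 CPM. The slopes differed by -0.82 ± 0.09 (edgeR adjusted p = 0.025), and both genes were the only ones of 9974 to pass by hours.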

How the results depend on the processing

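Each value below is a number of genes called, higher and then lower. For all input reads, long against short, the main test called 0 and 0. Against hours it called 51 and 503, with DESeq2's Wald test 97 and 256, without the low-count filter 39 and 192, in reads with 8 or more T positions 1 and 18, with at most 3 T positions 1 and 1, and without 1 library 0 to 78 and 0 to 442. By hours the Wald test called 89 higher, reads with at most 7 T positions 20 higher, reads with at most 3 T positions 2 and 4, and leaving out 1 library 0 to 165 and 0 to 795. For unconverted reads, long against short (1 and 66), the fit against hours called 835 and 1553, DESeq2 size factors 29 and 320, upper-quartile factors 25 and 376, the Wald test 200 and 720, no filter 176 and 557, the scaling of all reads 0 and 0, and leaving out 1 library 0 to 391 and 0 to 1229. By hours (835 and 1553) upper-quartile factors called 457 higher, the Wald test 550, the scaling of all reads 99, and leaving out 1 library 34 to 834 and 546 to 1778. For footprints (466 and 796) hours called 1075 and 1464, the Wald test 1204 lower, no filter 174 higher, DESeq2 size factors 271 higher, and leaving out 1 library 0 to 1240 and 0 to 2253. For the difference between footprints and input (0 and 0, and again without the replicate block by lysate) the Wald test called 5 and 34, no filter 1 and 1, and hours 1 and 1. Leaving out 1 lysate, with both its input and its footprints, gave at most 1 in either direction. Single genes turned in reads with few T positions: Nfkbid to 0.035 (at most 7, groups) and, with at most 3, Atp5j to -0.026 (groups), Rps29 to -0.030 (groups) and -0.098 (hours) and Gpr183 to 0.061 (hours). Without 1 library the difference of Rpsa in input between the groups ranged from -0.000338 (without 120 min) to 0.245. The cause was not tested for any of these. With 1 library per time, leaving out 20 or 120 min ended all calls by hours in all reads.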

Other observations

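Of the following lists few members passed by hours in all input reads. Where members fell, the shares were near the 5.23% of all genes, and shares that rose are set against 0.530% of all genes. Hk2, Pgk1, Prdx1, Chac1 and Ankrd37 were named after their values were seen. Of 26 genes of endoplasmic reticulum chaperones and the unfolded protein response 2 fell (7.69%) and 0 rose. In unconverted reads 10 rose (38.5%, against 8.71% of all genes) and 3 fell (11.5%, against 16.2%). When these were scaled as all reads, 2 rose and 3 fell, against 99 and 1831 of 9583 genes. Xbp1, a transcription factor of that response, was at 198, 194 and 201 CPM in the short group and at 169.8, 145 and 139 CPM in the long group (slope -0.30, edgeR adjusted p = 0.035). Herpud1, a factor of protein degradation at the endoplasmic reticulum, was at 65.3, 61.1 and 74.2 CPM and then at 47.2, 37.7 and 34.5 CPM (slope -0.54, edgeR adjusted p = 0.035). In both genes every long library lay below every short one. Of 31 ATF4 targets Chac1, a glutathione-degrading enzyme, was the only one called by hours (3.23%), at levels below 3 CPM in all 6 libraries.

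Of 28 hypoxia and glycolysis genes Ankrd37 and Hk2 fell (7.14%) and Pgk1 rose (3.57%, against 0.530% of all genes). Of the 2 that fell, 1 had at least 100 reads on average. Hk2, the hexokinase that starts glycolysis, was at 88.5, 82.0 and 60.3 CPM and then at 72.2, 49.1 and 31.0 CPM, so the groups overlapped (slope -0.69, edgeR adjusted p = 0.019). Pgk1, which makes ATP in the same pathway, was at 1377, 1387 and 1507 CPM and then at 1439, 1648 and 1893 CPM (slope 0.22, edgeR adjusted p = 0.047). Of 20 antioxidant genes under NRF2, Prdx1, a peroxide-removing enzyme, rose (slope 0.26, edgeR adjusted p = 0.041). This single gene is 5% of the list, against 0.530% of all genes. No list was tested as a whole.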
